A study of Mus musculus with 8 samples.

Results

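The genes described here encode proteins of the hepatocyte lipid droplet and of lipolysis, the release of fatty acids from stored triacylglycerol. The list named 10 genes, and a gene was taken where the array's annotation gave a row exactly 1 symbol, equal to that gene, keeping the row with the highest mean over the 8 arrays. This found 9 of the 10, of 22180 genes in all: Cidea and Cidec of the CIDE family, the perilipin genes Plin2, Plin3, Plin4 and Plin5, and Pnpla2, G0s2 and Mgll of lipolysis. The annotated row for Cideb is shared with Nop9, so Cideb was not analysed here.

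Expression was measured by whole-transcript array in mouse hepatocytes in primary culture, isolated from the liver with collagenase from p16-/- mice (knockout) and p16+/+ littermates (wild type), 4 samples each. p16 is an inhibitor of cyclin-dependent kinases encoded by Cdkn2a. All cultures attached in medium with 10% serum, 100 nM insulin and 25 nM dexamethasone, a synthetic glucocorticoid, and after 16 h spent 8 h in a low-glucose medium (1 mM glucose, 0.1% albumin) before RNA was taken at 24 h. The sources used here do not give the deleted part of the gene or the sex and age of the mice, nor whether each sample came from its own animal, so the p-values rest on a spread that may be partly technical. Cdkn2a itself, on its single row, had 4.16, 4.79, 4.48 and 4.68 on the wild type arrays and 4.28, 4.66, 4.27 and 4.91 on the knockout arrays. Its change was 0.0040 (SE 0.17, limma adjusted p = 0.992). The gene also encodes a second protein, p19Arf, and it is not known here whether the row reads the deleted part, so this value does not check the genotype labels and wild type and knockout mean the arrays so labelled. Values are log2 expression, so a difference of 1 is a doubling, and array values of different genes are not compared as levels.

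A lipid droplet is a core of triacylglycerol and sterol esters under a single layer of phospholipid, and the proteins on that layer decide how much fat is stored and how quickly it is released. CIDE proteins sit where droplets touch and pass lipid from the smaller to the larger droplet. Perilipins coat the surface and control the access of lipases. Lipolysis starts with adipose triglyceride lipase (the product of Pnpla2), which needs the coactivator encoded by Abhd5 and is blocked by the G0s2 protein, and it ends with monoglyceride lipase, the product of Mgll.

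Of the 9 genes, all of which lay above the limit for dim genes (a mean of 3.32), 4 rose in the knockout, 1 fell and 4 did not pass the test (limma, Benjamini-Hochberg adjusted p under 0.05 over 15380 genes). Cidec rose 2.88-fold, Plin4 1.77-fold, Plin5 1.36-fold and Plin3 1.31-fold, while Plin2 fell 1.66-fold. Over all genes tested 7.02% rose, 6.76% fell and 13.8% were called in either direction. Wild type and knockout values were fully separated for 5 of the 9 genes, against 20.2% of all genes tested. The median change of the 9 genes was 0.18 on the log2 scale, against -0.025 for all genes tested. The calls for Plin3 and Plin5 were the fragile ones: without wild type replicate 1 or 2, or without knockout replicate 1 or 2, the count of rising genes was 2 (Cidec and Plin4).

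**Figure D1:**
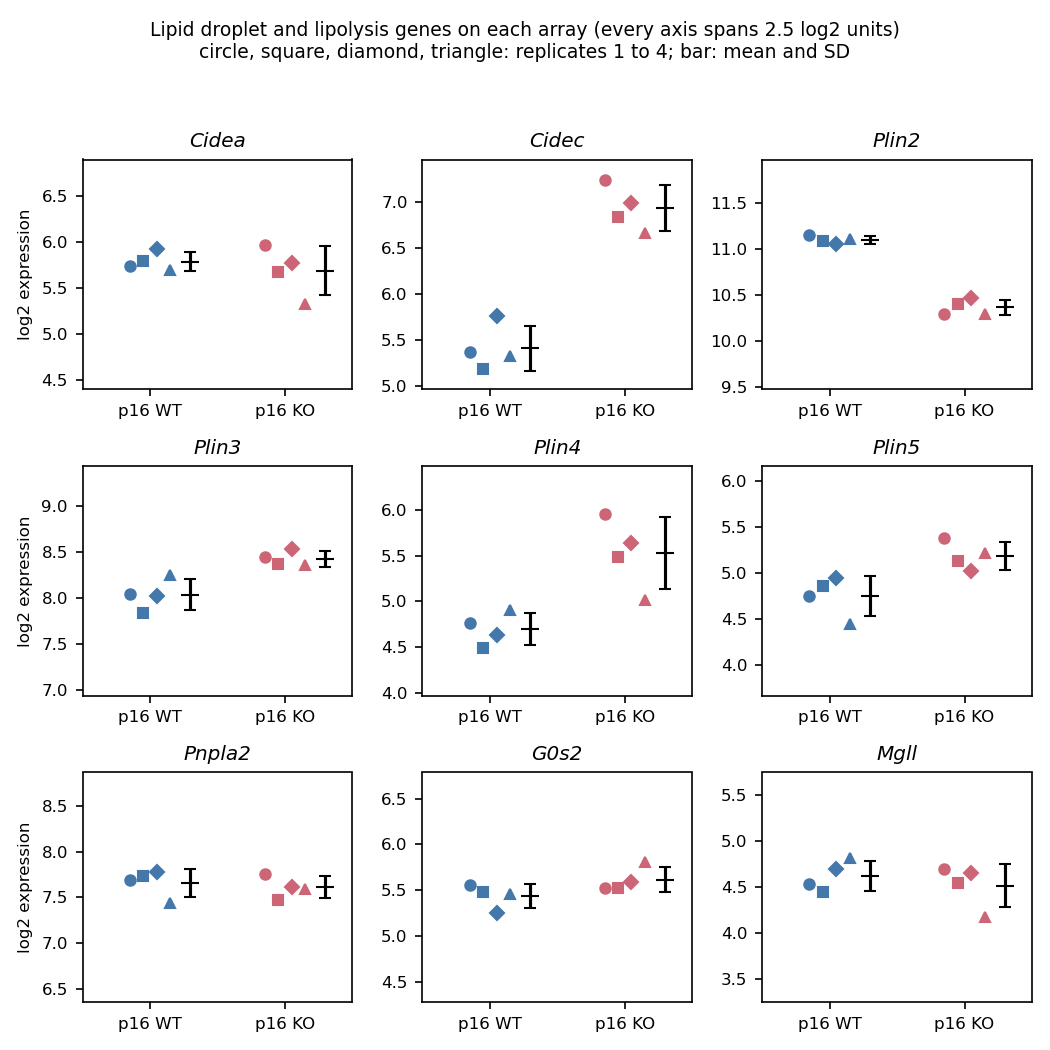
Log2 expression of each of the 9 genes (vertical axes, each spanning the same number of log2 units) on the 4 wild type (blue) and 4 knockout (red) arrays, with symbols for replicates 1 to 4 and bars for the group mean and SD. The groups are apart for Cidec, Plin2, Plin3, Plin4 and Plin5 and overlap for Cidea, Pnpla2, G0s2 and Mgll.

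Cidec, whose product (also called FSP27) drives the fusion of small droplets into large ones, changed most. It was at 5.36, 5.18, 5.76 and 5.32 on wild type arrays 1 to 4 and at 7.24, 6.83, 6.99 and 6.67 on knockout arrays 1 to 4. The lowest knockout array stood 0.91 above the highest wild type array, a gap wider than the spread within either group. The mean went from 5.40 ± 0.25 (SD, n = 4) to 6.93 ± 0.25 (log2 change 1.53, SE 0.15, limma adjusted p = 5.78e-05), and 45 of the 15380 genes tested had a larger rise.

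Cidea, the family member best known from brown fat and from fatty liver, did not follow. Its wild type values were 5.74, 5.79, 5.92 and 5.69 and its knockout values 5.96, 5.67, 5.77 and 5.33. The knockout group held both the highest and the lowest of the 8 values. The change was -0.10 with a 95% interval of -0.39 to 0.18 (limma adjusted p = 0.679), which leaves room for a change of up to 1.13-fold upward or to 0.765 of the wild type level. Cidec minus Cidea within an array was -0.38 ± 0.18 (SD, n = 4) on the wild type arrays and 1.25 ± 0.08 on the knockout arrays, without overlap. That shift of 1.63 had a two-sided exact permutation p of 0.0286, the smallest that 4 against 4 arrays can give. The adjusted p was 0.0714 over the 5 pairs of genes compared in this way, so it did not pass the correction. The gap of Cidec between the groups was wider than the range of Cidea over the 8 arrays. The difference therefore had to separate, and its p adds nothing to the change of Cidec.

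Plin2 encodes the main droplet coat protein of hepatocytes, a protein that is degraded when it is not bound to fat. Its wild type values were 11.16, 11.08, 11.05 and 11.11, and its knockout values were 10.30, 10.40, 10.46 and 10.29. Every wild type array was at least 0.59 above every knockout array, and the spread within each group was below 0.2. The mean fell from 11.10 ± 0.04 (SD, n = 4) to 10.36 ± 0.08 (log2 change -0.73, SE 0.08, limma adjusted p = 1.75e-04), and 233 of the genes tested fell further.

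Plin3, the perilipin that moves between the cytosol and young droplets, was higher in the knockout. Its values were 8.04, 7.83, 8.02 and 8.25 in wild type and 8.44, 8.37, 8.54 and 8.36 in knockout cells. The groups were separated by 0.11, between wild type replicate 4 and knockout replicate 4. The means were 8.04 ± 0.17 and 8.43 ± 0.08 (SD, n = 4), a rise of 0.39 (SE 0.10, limma adjusted p = 0.0275). Leaving out any array other than replicate 4 of either group ended the call, with adjusted p-values of 0.0539 to 0.0742.

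Plin4, a perilipin best known from adipocytes and muscle, had 4.77, 4.49, 4.63 and 4.91 on the wild type arrays and 5.95, 5.48, 5.64 and 5.02 on the knockout arrays. Knockout replicate 4 lay only 0.11 above the highest wild type array, while the other knockout arrays were clearly higher. The mean rose from 4.70 ± 0.18 (SD, n = 4) to 5.52 ± 0.39, a change of 0.82 (SE 0.17, limma adjusted p = 0.00927) that ranged from 0.68 to 0.99 when single arrays were left out. Its call held in each of those fits.

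Plin5 encodes the perilipin that brings droplets and mitochondria together and binds adipose triglyceride lipase and its coactivator. Its values were 4.74, 4.85, 4.94 and 4.44 in wild type and 5.38, 5.12, 5.01 and 5.21 in knockout cells. The gap between the groups was 0.08, the narrowest of the 5 listed genes that were called. The rise from 4.74 ± 0.22 to 5.18 ± 0.15 (SD, n = 4) was 0.44 (SE 0.12, limma adjusted p = 0.0374). The call ended when any array other than wild type replicate 3 or knockout replicate 3 was left out, with adjusted p-values of 0.0554 to 0.108.

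The perilipins therefore included 3 genes that rose and 1 that fell. Plin2 minus Plin3 within an array was 3.06 ± 0.16 (SD, n = 4) on the wild type arrays and 1.94 ± 0.08 on the knockout arrays, without overlap. The shift of -1.12 had an exact permutation p of 0.0286 and an adjusted p of 0.0714 over the 5 pairs, and so did not pass the correction. Plin2 was lower and Plin3 higher on every knockout array than on any wild type array. Their difference therefore had to separate with the smallest p, which adds nothing to the separate changes. Plin4 minus Plin5 was -0.04 ± 0.38 and 0.34 ± 0.38, with overlap (exact permutation p = 0.200, adjusted p = 0.250).

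**Figure D2:**
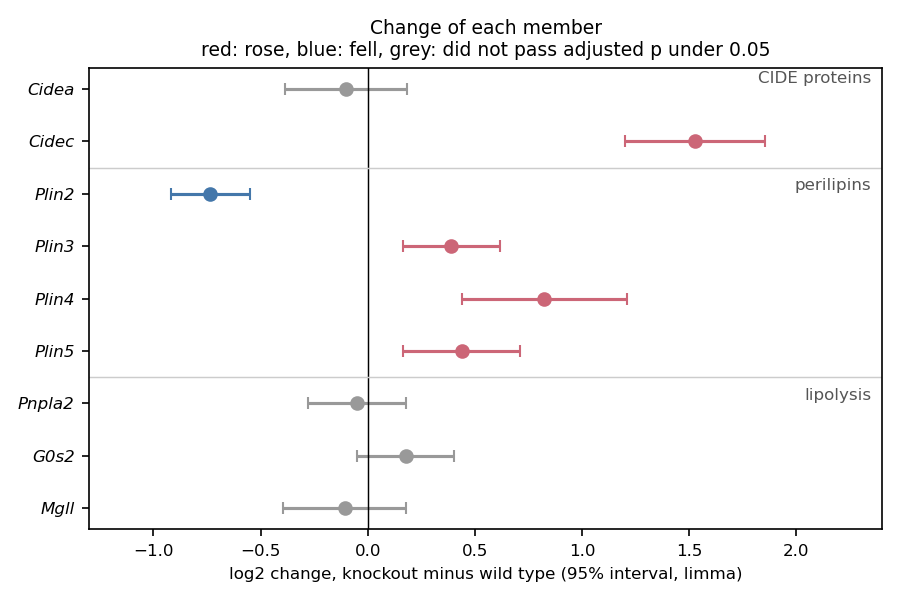
Log2 change of each gene, knockout minus wild type (horizontal axis), with its 95% interval from limma, grouped into CIDE proteins, perilipins and lipolysis. Cidec (1.53) and the perilipin genes Plin3, Plin4 and Plin5 lie to the right of 0, Plin2 (-0.73) lies to the left, and the intervals of Cidea, Pnpla2, G0s2 and Mgll span 0.

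Plin4 and Plin5 are direct neighbours on mouse chromosome 17, and Plin3 lies on the same chromosome with several genes in between. The gene next to Plin5 on its other side, Lrg1, which encodes a secreted leucine-rich glycoprotein, had a change of 0.14 (SE 0.09, limma adjusted p = 0.384). Hdgfl2, whose span in the RefSeq annotation overlaps Plin4, had one of -0.016 (SE 0.08, adjusted p = 0.935). Ticam1 and Arrdc5, on either side of Plin3, had changes of 0.19 (adjusted p = 0.348) and 0.058 (adjusted p = 0.763). None of these 4 neighbours was called. The other spans that overlap a gene of the list are those of Nop9 and Ltb4r2 (with Cideb) and of 4 predicted or clone-named genes. Nop9, on a row of its own, had a change of -0.037 (adjusted p = 0.842).

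The 250 bases before the start sites of the gene that rose most, of the gene that fell and of the neighbours Plin4 and Plin5 are printed here 5′ to 3′ along the gene, because these genes moved in different directions. They are RefSeq sequence of build GRCm38.p6, all on the minus strand, and these are not the only starts: other transcript models of Plin2, Plin4 and Plin5 begin further upstream, and the promoter table lists 2 windows each for Cidec and Plin5, of which the outermost is printed. Capitals mark matches, on either strand, to the nuclear receptor motif AGGTCA or to the TATA-like motif CTATAAG.
Cidec, chr6:113435761-113436010: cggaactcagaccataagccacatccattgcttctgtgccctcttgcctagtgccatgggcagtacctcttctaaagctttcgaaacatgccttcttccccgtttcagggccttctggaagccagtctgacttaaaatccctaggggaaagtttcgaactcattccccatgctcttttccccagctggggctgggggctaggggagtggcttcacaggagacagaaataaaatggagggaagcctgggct
Plin2, chr4:86670060-86670309: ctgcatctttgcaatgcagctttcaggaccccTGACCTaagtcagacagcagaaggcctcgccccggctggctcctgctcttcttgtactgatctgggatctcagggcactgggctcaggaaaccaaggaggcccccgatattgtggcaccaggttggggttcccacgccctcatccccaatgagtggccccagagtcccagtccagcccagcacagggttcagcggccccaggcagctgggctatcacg
Plin4, chr17:56109783-56110032: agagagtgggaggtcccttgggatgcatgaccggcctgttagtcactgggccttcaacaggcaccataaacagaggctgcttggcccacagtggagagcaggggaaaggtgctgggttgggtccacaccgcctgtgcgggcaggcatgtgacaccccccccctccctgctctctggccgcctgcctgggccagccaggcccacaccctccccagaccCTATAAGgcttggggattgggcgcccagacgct
Plin5, chr17:56117549-56117798: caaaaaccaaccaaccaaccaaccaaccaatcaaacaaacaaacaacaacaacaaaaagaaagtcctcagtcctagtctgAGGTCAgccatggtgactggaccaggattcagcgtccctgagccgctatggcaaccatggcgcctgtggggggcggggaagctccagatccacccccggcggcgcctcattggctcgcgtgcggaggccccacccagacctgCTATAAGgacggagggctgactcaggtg

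Of the 10 listed genes 9 had sequence in the promoter table, in 12 windows. The motif AGGTCA, the core to which PPARs and other nuclear receptors bind, was found before Plin2 (starting 218 bases before the start site) and before 1 of the start sites of Plin5 (170 bases), and in 14% of the 32851 windows of all genes. A full PPAR direct repeat, that motif followed by any base and the same motif again, was in no window of the list and in 0.0335% of all windows. An exact match that rare would be missing from 12 windows almost always, so its absence carries no information. The E-box CACGTG (6.02% of all windows) and the FOXO motif GTAAACA (3.17%) were each found only before Mgll among the windows of the list, and the cyclic AMP response element TGACGTCA (1.55%) before none. The letters CTATAAG, searched for after the sequences had been seen, stood 33 bases before the start of Plin4 and 28 bases before that of Plin5, and occur in 1.5% of all windows. AGGTCA is contained in the full PPAR site, and a match is a match of letters, not a measured binding site.

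The lipolysis genes of the list showed no change that passed the test. Pnpla2, which encodes adipose triglyceride lipase, was at 7.69, 7.74, 7.78 and 7.44 in wild type and 7.76, 7.47, 7.62 and 7.60 in knockout cells. The groups interleaved throughout. The change was -0.050 with a 95% interval of -0.28 to 0.18 (limma adjusted p = 0.811), that is, from 0.825 to 1.13 of the wild type level.

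G0s2, the inhibitor of that lipase, had 5.56, 5.49, 5.25 and 5.46 in wild type and 5.52, 5.53, 5.59 and 5.81 in knockout cells. Knockout replicate 4 was the highest and the others fell around the upper wild type values. The change was 0.18 with an interval of -0.050 to 0.40 (limma adjusted p = 0.315). A separate row for G0s2 had a lower mean and was not used. It stood at the same value of 4.12 on 4 of the 8 arrays and differed by 0.038 between the groups. G0s2 minus Pnpla2 within an array ran from -2.52 to -1.99 on the wild type arrays and from -2.23 to -1.78 on the knockout arrays, which overlap, and the shift was 0.23 (two-sided exact permutation p = 0.200, adjusted p = 0.250 over the 5 pairs).

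Mgll, whose enzyme cleaves the last fatty acid from glycerol and also breaks down the endocannabinoid 2-arachidonoylglycerol, had 4.53, 4.45, 4.70 and 4.82 in wild type and 4.70, 4.54, 4.66 and 4.17 in knockout cells. All but knockout replicate 4 lay within the wild type range. The change was -0.11 with an interval of -0.40 to 0.18 (limma adjusted p = 0.664). Mgll minus Pnpla2 shifted by -0.058 (exact permutation p = 0.829, adjusted p = 0.829).

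**Figure D3:**
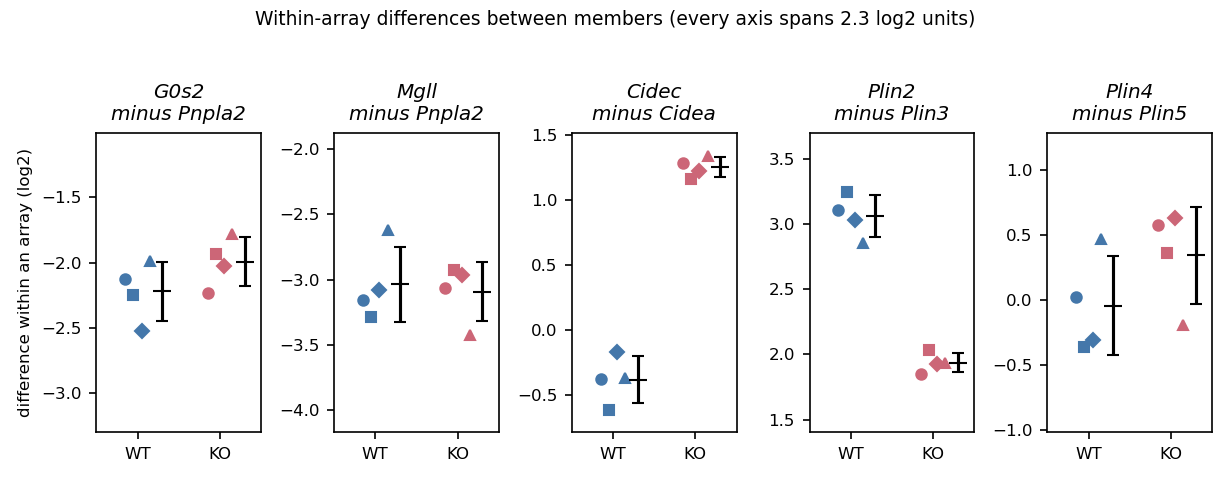
Within-array differences between pairs of genes (vertical axes, log2, each spanning the same number of units) on the wild type (blue) and knockout (red) arrays, with group mean and SD. Cidec minus Cidea and Plin2 minus Plin3 are apart between the groups, and the other 3 pairs overlap.

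Knockout replicate 4 stood at the lower end of its group more often than any other array, being the lowest knockout value for 6 of the 9 genes (Cidea, Cidec, Plin2, Plin3, Plin4 and Mgll) and the highest for G0s2. Knockout replicate 1 was the highest for 6. Without knockout replicate 4 the change of Cidec was 1.62, that of Plin4 0.99 and that of Plin2 -0.71.

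The other steps of droplet fat handling were examined in 6 lists with 104 genes on the array, 100 of them above the limit for dim genes. Of these 30 rose and 5 fell, against 7.02% and 6.76% of all genes tested, and their median change was 0.096. The lists hold lipases and cofactors, other droplet proteins, enzymes of triacylglycerol synthesis, proteins of lipoprotein secretion, regulators, and receptors and extracellular partners of lipolysis. Genes outside the 4 of smallest p in each list are named below after their values were seen.

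Among the other lipases and cofactors 9 of 15 rose and none fell, against 7.02% and 6.76% of all genes tested. Their median change was 0.68. All 7 carboxylesterases on the list rose, by 0.54 to 1.52; this family holds near-identical gene copies, so the division of signal between them is uncertain. Ces3b rose by 1.52 (SE 0.12, limma adjusted p = 1.04e-05), Ces1g by 1.33 (SE 0.10), Ces2a by 1.16 (SE 0.10), and Ces1d, which encodes the triacylglycerol hydrolase of the endoplasmic reticulum, by 1.08 (SE 0.11). Outside the family, Aadac, a lipase of the endoplasmic reticulum, rose by 0.93 (SE 0.08) and Abhd6, a monoacylglycerol lipase, by 0.70 (SE 0.13). Abhd5 and Lipe of the canonical pathway were not called, and neither were Lipa and Pnpla3. Abhd5, the lipase coactivator, had a change of 0.11 (95% interval -0.084 to 0.31), Lipe, which encodes hormone-sensitive lipase, one of 0.062 (-0.13 to 0.26), the lysosomal lipase gene Lipa 0.12 (-0.15 to 0.38) and Pnpla3 0.014 (-0.19 to 0.21).

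Of 22 other droplet surface and biogenesis genes 7 rose and 2 fell, against 7.02% and 6.76% of all genes tested. Their median change was 0.050. Hsd17b13, a hepatocyte droplet enzyme, rose by 0.56 (SE 0.09, limma adjusted p = 0.00133). Pcyt1a, whose enzyme makes phosphatidylcholine for growing droplets, rose by 0.66 (SE 0.11), and Fitm1 and Fitm2, which encode proteins of droplet budding, rose by 0.69 (SE 0.12) and 0.42 (SE 0.08). The sterol synthesis gene Nsdhl rose by 0.54 (SE 0.10), Sqle by 0.40 (SE 0.08) and Hsd17b11 by 0.42 (SE 0.13, limma adjusted p = 0.0481). The call for Hsd17b11 was lost in 16 of the 22 alternatives run. The falls were those of Osbpl2, a lipid transfer protein gene (-0.66, SE 0.12), and Tmem159, a partner of seipin at sites of droplet formation (-0.36, SE 0.09). The call for Tmem159 ended when wild type replicate 1 or 4, or any knockout array but replicate 1, was left out (adjusted p up to 0.0867). The seipin gene Bscl2 (0.11, 95% interval -0.079 to 0.29), the adipocyte perilipin gene Plin1 (-0.086, -0.39 to 0.22) and Hilpda, a hypoxia-induced inhibitor of adipose triglyceride lipase (-0.0055, -0.22 to 0.21), were not called.

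Of 17 genes of triacylglycerol synthesis 4 rose and 1 fell, against 7.02% and 6.76% of all genes tested. The median change was -0.033, and 1 fall among 17 genes is near the share of all genes. The lipin genes Lpin1 and Lpin2, whose enzymes make diacylglycerol, rose by 1.05 (SE 0.13) and 1.03 (SE 0.12). Gpam, which catalyses the entry step of glycerolipid synthesis, rose by 0.43 (SE 0.12) and Dgat1, an enzyme of the last step, by 0.34 (SE 0.09, limma adjusted p = 0.0369). The call for Dgat1 ended when any single array was left out and that for Gpam when replicate 1 or 2 of either group, wild type replicate 4 or knockout replicate 3 was; over the 22 alternatives run their adjusted p reached 0.0994 and 0.0896. Acsl4, an acyl-CoA synthetase that prefers arachidonic acid, fell by 0.46 (SE 0.10). Dgat2, the other enzyme of the last step, had a change of -0.17 (95% interval -0.36 to 0.021) and was not called.

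Of 12 genes that move droplet fat into lipoproteins 3 rose and none fell, against 7.02% and 6.76% of all genes tested. Those that rose were Tm6sf2 (0.69, SE 0.11), Mttp, which encodes the microsomal triglyceride transfer protein (0.47, SE 0.10), and Apoc3 (0.33, SE 0.08). The call for Apoc3 ended when wild type replicate 1 or 2, or replicate 2 or 3 of the knockout, was left out (adjusted p up to 0.0641). P4hb, which encodes the partner subunit of that transfer protein, had a change of 0.28 (limma adjusted p = 0.0506), and Apob one of -0.032 (95% interval -0.28 to 0.21).

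Of 22 regulators 5 rose and none fell, against 7.02% and 6.76% of all genes tested. The coactivator gene Ppargc1a rose by 1.11 (SE 0.14), Insig2, which retains SREBP in the endoplasmic reticulum, by 0.85 (SE 0.11), Ppard, which encodes a fatty acid receptor of the PPAR family, by 0.72 (SE 0.16) and Foxo1, an insulin-restrained transcription factor, by 0.68 (SE 0.12). Creb3l3 rose by 0.33 (SE 0.10, limma adjusted p = 0.0495), a call lost in 14 of the 22 alternatives run. Ppara (0.21, 95% interval -0.13 to 0.56) and Pparg (-0.27, -0.51 to -0.030, limma adjusted p = 0.138), the other PPAR genes, were not called. Of 12 receptors and partners of lipolysis 2 rose and 2 fell, against the same shares of all genes tested (7.02% and 6.76%). Angptl4, which encodes an inhibitor of lipoprotein lipase, fell by 0.81 (SE 0.09, limma adjusted p = 2.18e-04). Its mean went from 8.04 ± 0.10 to 7.23 ± 0.12 (SD, n = 4). Lpl, the gene of that lipase, fell by 1.03 (SE 0.16). The glucagon receptor gene Gcgr rose by 0.61 (SE 0.10) and the fatty acid receptor gene Ffar4 by 0.54 (SE 0.15). The call for Ffar4 ended when any wild type array but replicate 3, or replicate 1 or 3 of the knockout, was left out, and with a looser or no filter on dim genes (adjusted p up to 0.0979).

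**Figure D4:**
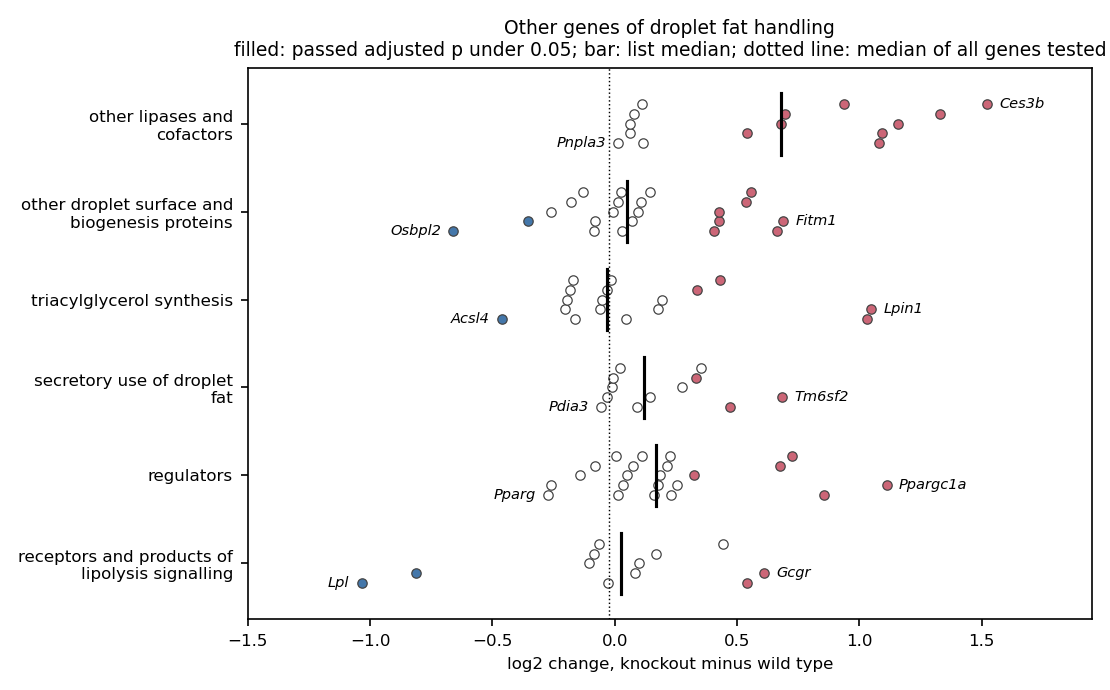
Log2 change, knockout minus wild type (horizontal axis), of every tested gene in 6 lists of droplet fat handling, with filled points for genes past an adjusted p of 0.05 (red rose, blue fell), a bar at each list's median, and a dotted line at the median of all genes tested (-0.025). The lipases and cofactors have the highest list median (0.68), and the names mark the lowest and highest gene of each list.

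The genes whose profile over the 8 arrays lay closest to that of Cidec, after each row was centred on its mean, were looked for among 13824 tested genes with ordinary names. They were Kmo, an enzyme of tryptophan breakdown (root mean square difference 0.118 on the log2 scale), the fatty acid hydroxylase gene Cyp4f14 (0.134), the vasopressin receptor gene Avpr1a (0.138), Fah, the last enzyme of tyrosine breakdown (0.139), and Ankrd23 (0.144). Their changes ran from 1.33 for Fah to 1.60 for Avpr1a. These distances describe 8 arrays that also differ by genotype.

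Markers of other liver cell types, and of hepatocytes themselves, moved with genotype on the same arrays. Over all genes tested 7.02% rose and 6.76% fell. Of 10 hepatocyte markers 7 rose and none fell, and their mean level was 9.67 to 9.85 in wild type and 10.5 to 10.7 in knockout cells. The defining ones were bright: Alb, which encodes albumin, had a mean of 13.5 in wild type and 13.6 in knockout cells. Apoa1 and Ttr had changes of 0.22 and 0.19 that did not pass. The 7 rises were unequal and ran from 0.41 for Cyp2e1 to 2.69 for Arg1. Of 10 sinusoidal endothelial markers all 10 fell, with mean levels of 6.08 to 6.28 and 4.80 to 5.06, and the defining Stab2, Lyve1 and Cdh5 fell by 0.86, 1.72 and 2.03. Of 9 tested Kupffer cell markers 7 fell and 1 rose (5.21 to 5.31 and 4.55 to 4.61). Adgre1 and Csf1r fell by 0.83 and 0.87, and Clec4f had a change of -0.14. The marker that rose was Cd68, by 0.58 (SE 0.13, limma adjusted p = 0.0131), from a mean of 10.87 to 11.45.

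The same shares of all genes tested, 7.02% rising and 6.76% falling, stand beside the remaining marker lists. Of 10 markers of stellate cells, which store retinyl esters in lipid droplets of their own, 4 fell and 1 rose (4.87 to 4.95 and 4.26 to 4.41). Lrat, whose enzyme makes those esters, fell by 1.47 (SE 0.18), Dcn fell by 2.13 (SE 0.16) and Reln rose by 0.99 (SE 0.13). Of 3 tested adipocyte markers 1, Fabp4, fell, by 0.89 (SE 0.10), while Adipoq and Lep were below the limit for dim genes and Retn and Plin1 were not called; the list's mean level was 4.24 to 4.53 in wild type and 3.95 to 4.36 in knockout cells. None of 4 tested cholangiocyte markers (4.67 to 4.83 and 4.45 to 4.80; Krt19 -0.24, Krt7 -0.14, Epcam -0.25) and none of 2 tested lymphocyte markers (3.29 to 3.41 and 3.23 to 3.37; Cd3e -0.06, with Ptprc and Cd79a dim) was called. In RNA from a mixed preparation fewer cells of a type and less RNA per cell cannot be told apart. The part of these shifts in the changes of Cidec, Plin2 and the other droplet genes was not tested.

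**Figure D5:**
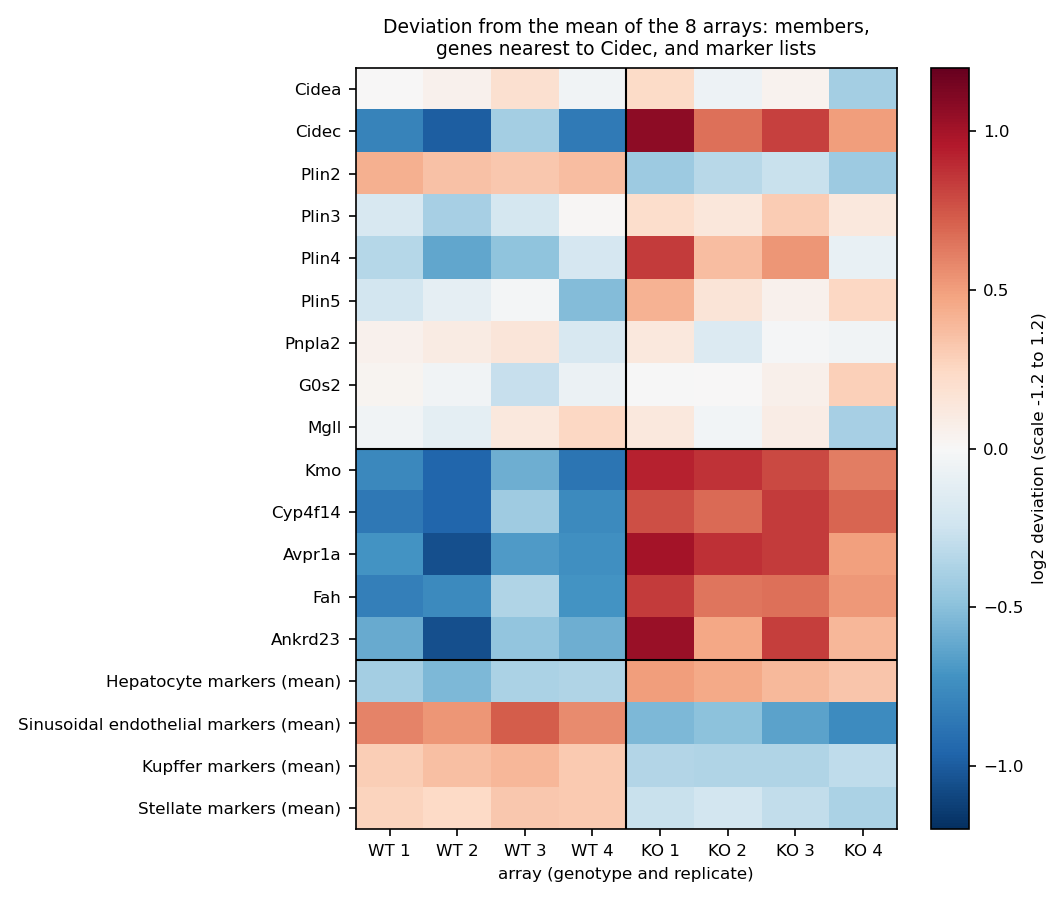
Deviation of each row from its mean over the 8 arrays (colour, log2 units) for the 9 genes, the 5 genes nearest to Cidec and the mean of 4 marker lists, with wild type arrays on the left and knockout arrays on the right. Cidec, its nearest genes and the hepatocyte markers are higher on the knockout arrays, and Plin2 and the endothelial, Kupffer and stellate markers are lower.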

How the data were processed

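RNA of 8 samples was measured on whole-transcript arrays. The deposited values are log2 expression for 41345 rows, made by the authors with RMA through the oligo package, per the submitters' processing notes; the sources used here give no versions. RMA corrects background and normalizes between arrays, which can compress changes of dim genes. Arrays have no read depth, and 4 arrays per group limit the precision. Array medians ran from 3.76 to 3.88, and arrays correlated at 0.985 to 0.993 within and 0.973 to 0.983 between groups. No batch is named in the labels.

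Of the rows 23521 carried 1 symbol in the platform annotation, 1814 several and 16010 none. Genes were tested where the row mean exceeded the 40th percentile (3.32). The comparison used limma 3.58.1 under R 4.3.3 (functions lmFit and eBayes; 6 residual and 5.05 prior degrees of freedom), two-sided, with Benjamini-Hochberg adjustment over 15380 genes. Changes are knockout minus wild type, SE is limma's moderated standard error, and intervals are 95%. Differences between genes were compared by exact permutation over 70 arrangements; of 6 planned pairs the one with Cideb could not be computed. The fit was also run on simulated data with independent noise for each gene and added changes larger than those of Plin3 and Plin5. That run does not test the calls reported here. The text names the listed genes, the 4 genes of smallest p in each list, the nearest profiles, chromosomal neighbours and the first 3 markers of each cell type. Further list genes and markers are named after their values were seen. Members, gene lists, pairs and markers were chosen with earlier results of these data known, the motifs with the changes known, and CTATAAG after the sequences had been seen. The labels do not say whether replicate numbers pair the samples, and the main fit did not pair them. Deviations of same-numbered arrays correlated at 0.020 to 0.26, and those of arrays with different numbers at -0.29 to 0.15. Alternatives covered the dim-gene filter, the rule for several rows, normalization, variance model, array weights, a replicate block, thresholds and leaving out each array.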

Additional observations from a re-analysis of the deposited data

Results flagged for a closer look

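None of the 9 genes of the list had an array far outside the rest of its group. Among the 64 genes examined, or 128 groups of 4 arrays, 8 groups held 1 array whose distance to its nearest neighbour was above Dixon's 95% critical share of the group's range, where chance gives about 1 in 20. In wild type cells these were Ces2a in replicate 1 (8.64, the others 8.29 to 8.30), Nsdhl in replicate 4 (8.69, the others 8.56 to 8.57), Lpl in replicate 1 (5.09, the others 4.58 to 4.67), Avpr1a in replicate 2 (5.24, the others 5.55 to 5.61), Nop9 in replicate 2 (7.20, the others 7.35 to 7.37) and Lyve1 in replicate 2 (7.90, the others 8.09 to 8.12). In knockout cells they were Nop9 in replicate 4 (7.13, the others 7.33 to 7.35) and Ttr in replicate 1 (12.95, the others 12.98).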

How the results depend on the processing

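The fall of Plin2 and the rises of Cidec and Plin4 passed in all 22 alternatives run, with changes of -0.77 to -0.71, 1.42 to 1.64 and 0.68 to 0.99, and Cidea, Pnpla2, G0s2 and Mgll passed in none of them. The count of 4 rising genes was 2 (Cidec and Plin4) with no filter on dim genes, with an adjusted p under 0.01 and with a required 1.5-fold change, and 2 to 3 when single arrays were left out. Without the filter the adjusted p was 0.0528 for Plin3 and 0.0675 for Plin5, and that of Plin5 was 0.0542 with the 20th percentile filter and 0.0511 with median centring. The 30 rising and 5 falling genes of the other lists became 18 and 3 with a required 1.5-fold change, 3 fell at an adjusted p under 0.01, and leaving out single arrays gave 24 to 31 and 4 to 5. With the replicate number as a block, 3 genes of the list rose and 1 fell, 29 and 5 of the other lists did, Plin5 had an adjusted p of 0.0593, and the differences between pairs kept their values (1.63 for Cidec minus Cidea, -1.12 for Plin2 minus Plin3). Deviations of knockout arrays 1 and 2 correlated best with wild type arrays of another number. The values were 0.14 and 0.022, against 0.061 and 0.020 for the same number. Those of knockout arrays 3 and 4 correlated best with their own number (0.26 and 0.21). The labels do not say whether the numbers pair the samples, and these values cannot decide it. Of 2953 changes recomputed for 135 genes, 107 lost a call, 29 gained one and 0 of the called ones reversed. The values carry no background measurement, so how far dim rows such as those of Mgll, Plin4, Plin5 and Lpl stand above background was not tested.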
